A study of Mus musculus with 2 samples.

Results

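Heparan sulfate genes were followed in differentiated C2C12 cells with a hairpin against Lrrfip1. The set comprised 35 named genes for the enzymes that build, sulfate, trim and cleave heparan sulfate chains and for the proteins that carry them, and it was matched to the array through the platform annotation, with every probe set used that had exactly 1 gene symbol. A probe set is a group of short probes that reads 1 stretch of a transcript. In all, 33 of the 35 genes had at least 1 such probe set, of 18193 genes on the array, and they were read by 76 probe sets. Xylt1 and Ndst1 were not analysed here. The genes were put together with their differences between these arrays already known, so their values are given as a description and no test is attached to them.

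C2C12 is a mouse myoblast line that fuses into myotubes when serum is lowered. The shLrrfip1a array held RNA of C2C12 cells with a hairpin against Lrrfip1, and the control array RNA of C2C12 cells with a control hairpin (spelled shLCUI in the sample labels). Both cultures grew in 10% fetal bovine serum and were then kept for 5 days in 2% horse serum. There was 1 array per group, made from 6 ug of total RNA, so a difference has no replicate check, no p-value or SD can be attached, and it cannot be told apart from differences between cultures or arrays. Whether the cells were a clone or a pool is not given in the sources used here.

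Heparan sulfate is a long, variably sulfated sugar chain that is attached to a few core proteins of the cell surface and the basement membrane. Enzymes of the Golgi first place a short linker on the core protein, then lengthen the chain, and then remove acetyl groups, add sulfate and convert one of its sugars. The resulting sulfate pattern decides which growth factors the chain holds, and fibroblast growth factors, hepatocyte growth factor and Wnt proteins are known ligands. Outside the cell the pattern can still be edited by sulfatases, or the chain cut by heparanase. In skeletal muscle the chains are known for their part in satellite cell signalling and in the synaptic basement membrane.

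Lrrfip1 read 375, 292 and 108 on its 3 probe sets in shLrrfip1a cells, against 531, 469 and 160 in control cells, which is 70.6%, 62.2% and 67.4% of the control. The deposited intensities are on a linear scale, with a median of 53.5 on the shLrrfip1a array and 51.3 on the control array. Differences below are shLrrfip1a minus control on the scale of log2(intensity + 16), where the added 16 makes the change of dim probe sets look smaller than it is. Each gene was stood for by its brightest probe set, judged by the average of the 2 arrays. A gene passed the level filter when that average exceeded the median probe set, at an intensity of about 52.4, as it did for 11448 genes. Of myotube markers, Myog read 2005 in shLrrfip1a cells and 2612 in control cells (-0.38), and Acta1 5220 in shLrrfip1a cells and 5586 in control cells. Ckm went the other way, at 422 in shLrrfip1a cells and 321 in control cells (0.38). Of 8 myotube markers 7 passed the filter, 2 of them higher (Ckm and Myh3) and 5 lower, and none of these reached 2-fold. Of 11 measured endothelial, macrophage and adipocyte markers 3 passed it (Kdr, Adgre1 and Csf1r), and the 11 summed to 524 in shLrrfip1a cells and 435 in control cells. Adgre1 read 58.0 in shLrrfip1a cells and 57.7 in control cells, and Csf1r 131 in shLrrfip1a cells and 130 in control cells. Of those below the filter, Pecam1, Cdh5, Tek, Ptprc, Cd68, Adipoq and Fabp4 read at most 33.6 in either culture. Pparg, also below it, read 54.9 in shLrrfip1a cells and 43.8 in control cells. Kdr, an endothelial receptor gene, read 118 in shLrrfip1a cells and 47.97 in control cells. Of 6 fibroblast markers 5 passed the filter, and the 6 summed to 12605 in shLrrfip1a cells and 10050 in control cells. Dcn read 3497 in shLrrfip1a cells and 260 in control cells (3.67), and Thy1 differed by 0.11. Col1a1, Pdgfra and Col1a2 were lower in shLrrfip1a cells (-0.42, -0.35 and -0.03), and the median of the 5 was -0.03. The part of other cell types in the results was not tested.

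Of the 33 genes, 26 lay above the filter. At the 2-fold size, 2 of the 26 were higher in shLrrfip1a cells (Hs3st1 and Sulf2) and 1 was lower (Sulf1). That size was passed by 0.664% of all 11448 genes as higher, by 0.69% as lower and by 1.35% in either direction. At 1.5-fold the higher members were joined by Gpc6 and the lower by Hpse and Agrn, making 3 in each direction, where 2.34% of all genes passed as higher, 2.46% as lower and 4.8% in either direction. The remaining 20 differed by less than 1.5-fold. The members were chosen with this comparison known, so nothing is read from their share. The median difference of the 26 was -0.0044, with 13 higher and 13 lower, beside 0.0043 over all genes.

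**Figure D1:**
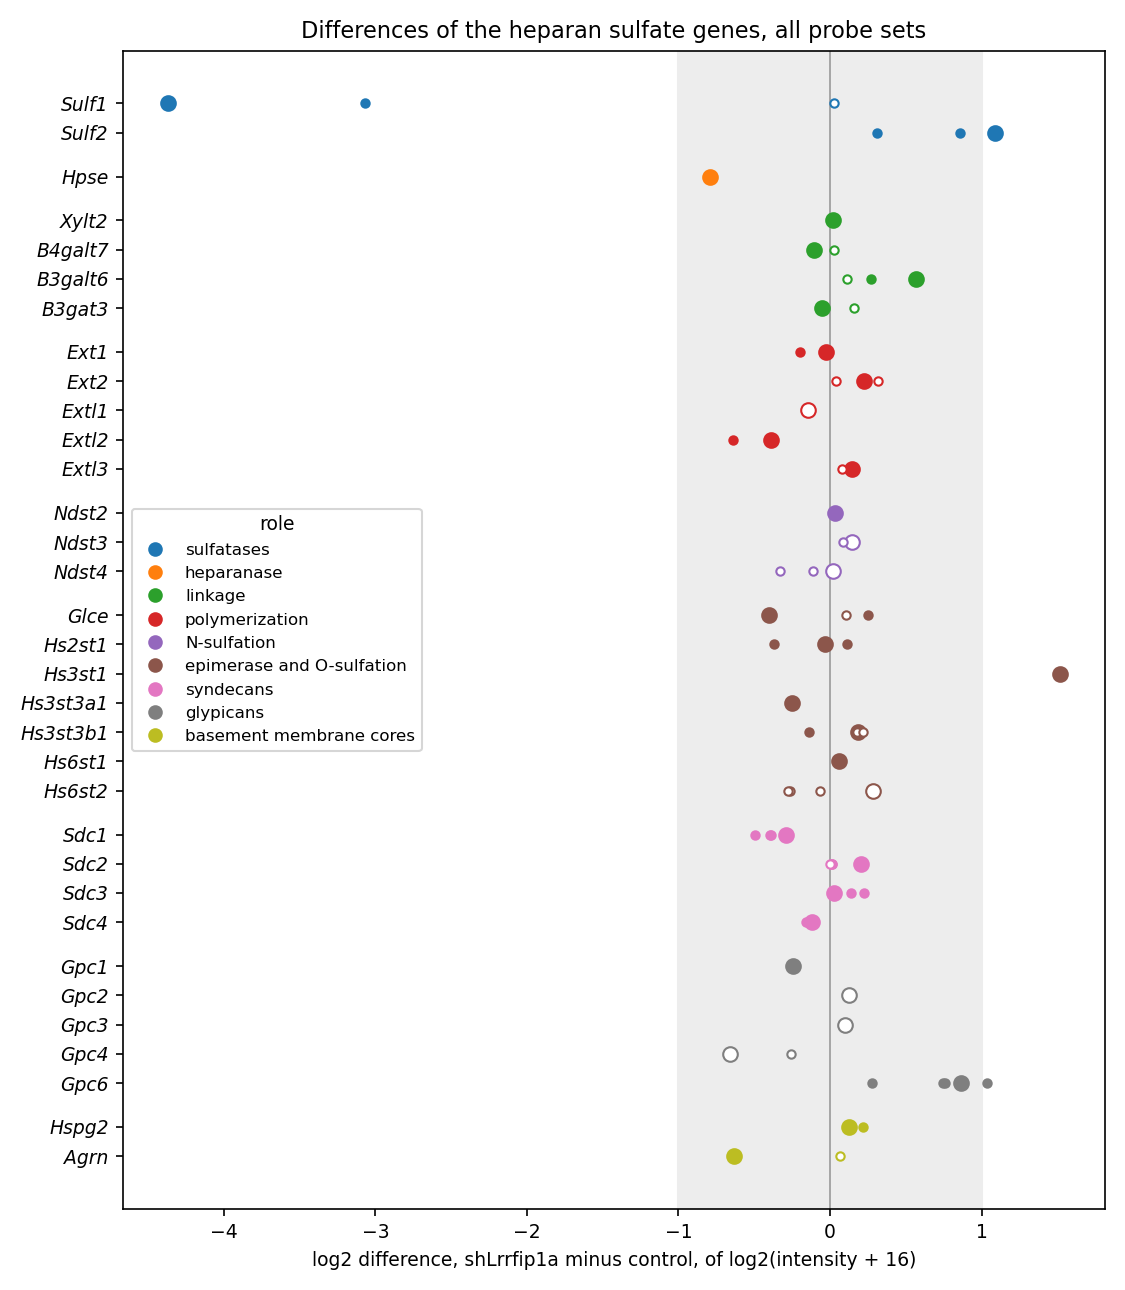
Log2 difference, shLrrfip1a minus control, for all 76 probe sets of the 33 heparan sulfate genes, 1 gene per row and grouped by role. The large point is the probe set that stands for the gene, small points are its other probe sets, open points lie below the level filter, and the grey band marks less than 2-fold. Sulf1 lies far to the left at -4.37, Hs3st1 (1.52) and Sulf2 (1.09) lie right of the band, and most other genes sit near 0.

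The sulfatase genes differed in opposite directions. Sulf1 and Sulf2 encode the secreted endosulfatases that take sulfate off finished heparan sulfate chains, and in mice both have been studied in muscle regeneration. On its brightest probe set (1438200_at) Sulf1 read 13.05 in shLrrfip1a cells and 584 in control cells, a difference of -4.37. On the second (1436319_at) it read 9.62 in shLrrfip1a cells and 199 in control cells (-3.07). At most 10.4% of the probe sets of the shLrrfip1a array were dimmer than either value there, while both control values lay above the control array's upper quartile of 153. The shLrrfip1a values were far below the level filter, so the size of the difference is not a measured fold. With the filter level of 52.4 put in their place, Sulf1 was at least 11.1-fold and 3.803-fold lower in shLrrfip1a cells on these 2 probe sets. The third Sulf1 probe set was dim in both cultures, at 21.1 in shLrrfip1a cells and 20.4 in control cells (0.03). Where on the transcript each probe set lies was not analysed here. Sulf1 passed the filter through its control value, and the log2 difference depended on the added constant, with -5.38 for a constant of 1 and -3.07 for 64.

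Sulf2 was higher in shLrrfip1a cells on all 3 of its probe sets. The brightest (1447602_x_at) read 1639 in shLrrfip1a cells and 762 in control cells (1.09). The second read 364 in shLrrfip1a cells and 194 in control cells (0.85). The third read 78.2 in shLrrfip1a cells and 59.8 in control cells (0.31). Of all genes above the filter, 0.585% had a higher difference than the brightest probe set. The name of that probe set marks it as one that can bind related transcripts, and without such probe sets Sulf2 differed by 0.85 and was under the 2-fold size. As plain ratios of shLrrfip1a over control, Sulf2 came to 2.15 on the brightest probe set and 1.31 on the dimmest. Which of the 2 sulfatase genes gave more message cannot be read from these arrays, since the intensities of different probe sets are not on a common scale.

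**Figure D2:**
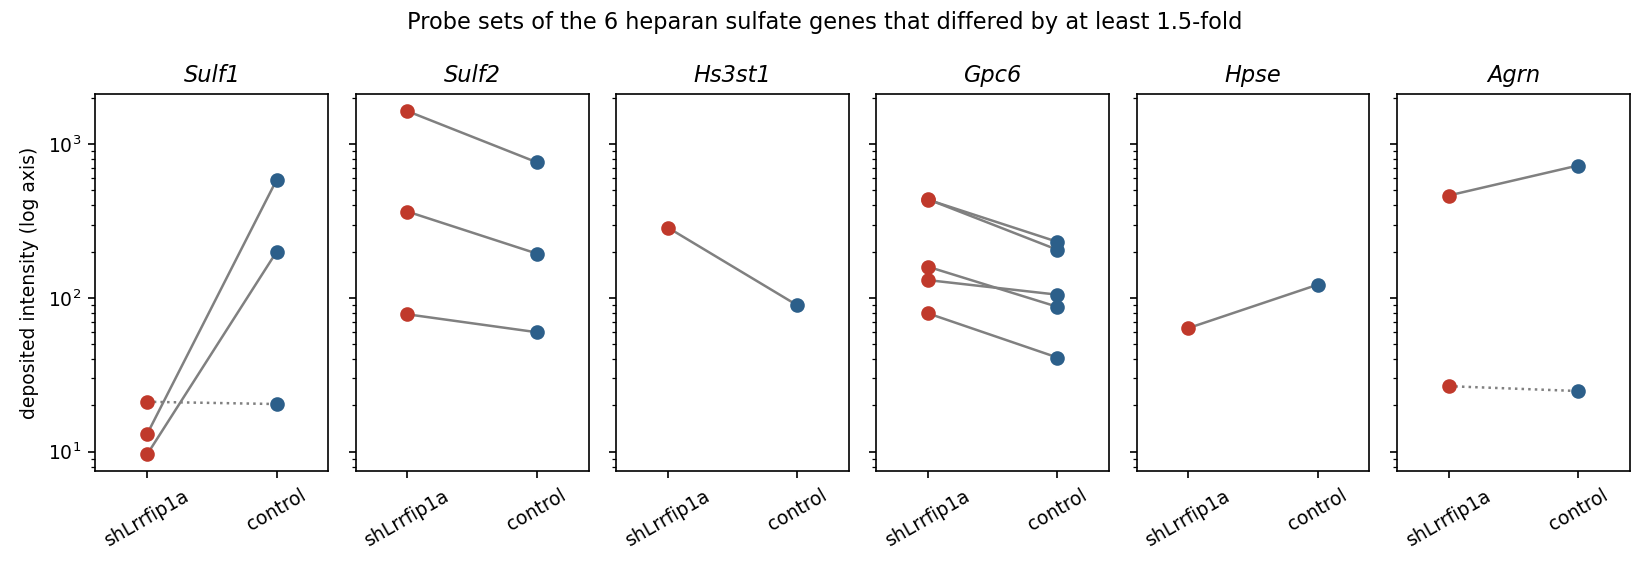
Deposited intensity (log axis) of every probe set of the 6 genes that differed by at least 1.5-fold, in shLrrfip1a cells (red, left) and control cells (blue, right), with 1 array each and a line per probe set. Dotted lines are probe sets below the level filter. The 2 bright Sulf1 probe sets lie at 13.05 and 9.62 in shLrrfip1a cells, against 584 and 199 in control cells. All 3 probe sets of Sulf2 and all 5 of Gpc6 are higher in shLrrfip1a cells.

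Heparanase is the enzyme that cuts the chain itself, and the message of its gene Hpse was lower. Hpse read 63.7 in shLrrfip1a cells and 122 in control cells on its only probe set used (-0.79). The shLrrfip1a intensity was 52.2% of the control, and 1.36% of genes above the filter had a lower difference. The gene is dim, and the difference came to -0.54 with a constant of 64, under 1.5-fold.

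Genes for enzymes that add sulfate or convert sugars along the chain stayed under 1.5-fold apart from Hs3st1. Hs3st1 encodes a 3-O-sulfotransferase that makes the rare motif bound by antithrombin. It read 287 in shLrrfip1a cells and 89.7 in control cells on its only probe set (1423450_a_at), a difference of 1.52 and a plain ratio of 3.20. Of all genes above the filter, 0.271% had a higher difference. The related Hs3st3a1 and Hs3st3b1, whose products modify other chain motifs, differed little. Hs3st3a1 read 58.4 in shLrrfip1a cells and 72.7 in control cells (-0.25), and Hs3st3b1 read 115 in shLrrfip1a cells and 98.9 in control cells (0.19). The second Hs3st3b1 probe set above the filter differed by -0.14, so that gene had no settled direction. Of the family members outside the set, Hs3st2 differed by 0.25 and Hs3st6 by 0.13, so Hs3st1 was the only 1 of these 5 past 1.5-fold.

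Glce, the epimerase that converts glucuronic to iduronic acid, read 396 in shLrrfip1a cells and 528 in control cells (-0.40). Its second probe set above the filter went the other way, at 65.9 in shLrrfip1a cells and 52.9 in control cells (0.25). Hs2st1, which sulfates iduronic acid, read 617 in shLrrfip1a cells and 631 in control cells (-0.03), and its 4 probe sets ran between -0.37 and 0.11. Hs6st1, which places the sulfate that the sulfatases later remove, read 228 in shLrrfip1a cells and 218 in control cells (0.06). Hs6st2, of the same function, lay below the filter on all 4 probe sets, with at most 45.9 in shLrrfip1a cells and 34.9 in control cells. Ndst2, which removes acetyl groups and adds sulfate in their place, read 124 in shLrrfip1a cells and 121 in control cells (0.03). Ndst3 and Ndst4 lay below the filter on all 5 of their probe sets. The 6 genes of this step above the filter, Ndst2 not counted, had a median of 0.01.

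Genes for the linker and for chain growth stayed under 1.5-fold on the probe sets that stand for them, except that B3galt6 passed it under 2 of the alternatives. Of the linker enzymes, B3galt6, which adds the second galactose, had the largest difference, at 142 in shLrrfip1a cells and 90.5 in control cells (0.57), just under the 1.5-fold size of 0.58. As a plain ratio this is 1.57, and the difference came to 0.74 under spike-in scaling and 0.64 with a constant of 1, both past 1.5-fold. Its second probe set above the filter read 99.8 in shLrrfip1a cells and 80.01 in control cells (0.27). Xylt2, which starts the linker, read 55.4 in shLrrfip1a cells and 54.6 in control cells (0.02). B4galt7 and B3gat3, for the first galactose and the last sugar of the linker, differed by -0.10 and -0.06. Ext1 and Ext2, which together form the chain polymerase, were close to level. Ext1 read 764 in shLrrfip1a cells and 778 in control cells (-0.03), and Ext2 read 382 in shLrrfip1a cells and 325 in control cells (0.22). Extl2, a glycosyltransferase that can end a growing chain, was lower on both of its probe sets, at 185 and 141 in shLrrfip1a cells, against 247 and 229 in control cells (-0.39 and -0.64). Extl3, which begins the chain on the linker, differed by 0.14, and Extl1 was dim, at 37.6 in shLrrfip1a cells and 43.3 in control cells. The median of the 4 linker genes was -0.02 (0.13 under spike-in scaling), and that of the 4 chain growth genes above the filter 0.06.

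Over all 15 measured genes of chain synthesis and modification above the filter, the median difference was 0.02. Of these genes, 1 (Hs3st1, or 6.67%) passed 1.5-fold, beside 4.8% of all genes above the filter. The count was 2, with B3galt6 added, under spike-in scaling and with a constant of 1. The genes for the extracellular enzymes were all past 1.5-fold as reported: Sulf1 and Hpse lower, and Sulf2 higher. Hpse fell short of it with a constant of 64 (-0.54), and a level filter at the 75th percentile left out both Sulf1 and Hpse. These are counts of 15 and 3 genes on 1 array per group, and the difference between the groups of enzymes was not tested.

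Among core protein genes, those for the syndecans, which span the membrane, differed by less than 1.5-fold. Sdc1 was lower in shLrrfip1a cells on all 4 probe sets, at 1461, 756, 331 and 187, against 1792, 1074, 441 and 250 in control cells. Its differences were -0.29, -0.50, -0.40 and -0.39 in the same order. Sdc2 was the same or slightly higher, at 2452 in shLrrfip1a cells and 2127 in control cells (0.20), with 0.01 on its next 2 probe sets. Sdc3 and Sdc4, which in mice mark satellite cells, differed by 0.03 and -0.12 on their brightest probe sets. These came to -0.02 for Sdc3 under median centring and 0.06 for Sdc4 under spike-in scaling. Their other probe sets above the filter differed by 0.22 and 0.14 for Sdc3 and by -0.16 for Sdc4. The median of the 4 genes was -0.05, and 0.13 under spike-in scaling.

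The glypicans are tied to the outer membrane leaflet by a lipid anchor. Gpc6 was higher on all 5 probe sets, all of them above the filter. Its brightest read 435 in shLrrfip1a cells and 232 in control cells (0.87). The other 4 read 438, 160, 131 and 79.4 in shLrrfip1a cells, against 206, 87.6, 105 and 40.96 in control cells (1.03, 0.76, 0.28 and 0.74). Gpc6 thus passed 2-fold on 1 of 5 probe sets and stayed under it on the one that stands for the gene. Gpc1, the glypican that in mouse myoblasts has been reported to hold fibroblast growth factor away from its receptors, read 1588 in shLrrfip1a cells and 1886 in control cells (-0.25). Gpc4 lay just below the filter and was lower, at 37.02 and 24.4 on its 2 probe sets in shLrrfip1a cells, against 67.8 and 32.3 in control cells (-0.66 and -0.26). It was the member nearest the filter from below, and Xylt2 the nearest from above. Gpc2 and Gpc3 were dim in both cultures, with at most 15.7 in shLrrfip1a cells and 13.6 in control cells.

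Of the genes for basement membrane core proteins, Agrn was lower and Hspg2 was not. Agrn encodes agrin, which in its nerve-derived form gathers acetylcholine receptors at the synapse. It read 464 in shLrrfip1a cells and 726 in control cells (-0.63), or 63.8% of the control. It was under 1.5-fold with spike-in scaling (-0.45), with a constant of 64 (-0.58, just short of that size) and with the mean over probe sets (-0.28). Its second probe set was dim, at 26.7 in shLrrfip1a cells and 24.8 in control cells. Hspg2, the gene for perlecan, read 765 and 239 on its 2 probe sets in shLrrfip1a cells, against 699.7 and 203 in control cells (0.13 and 0.22).

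**Figure D3:**
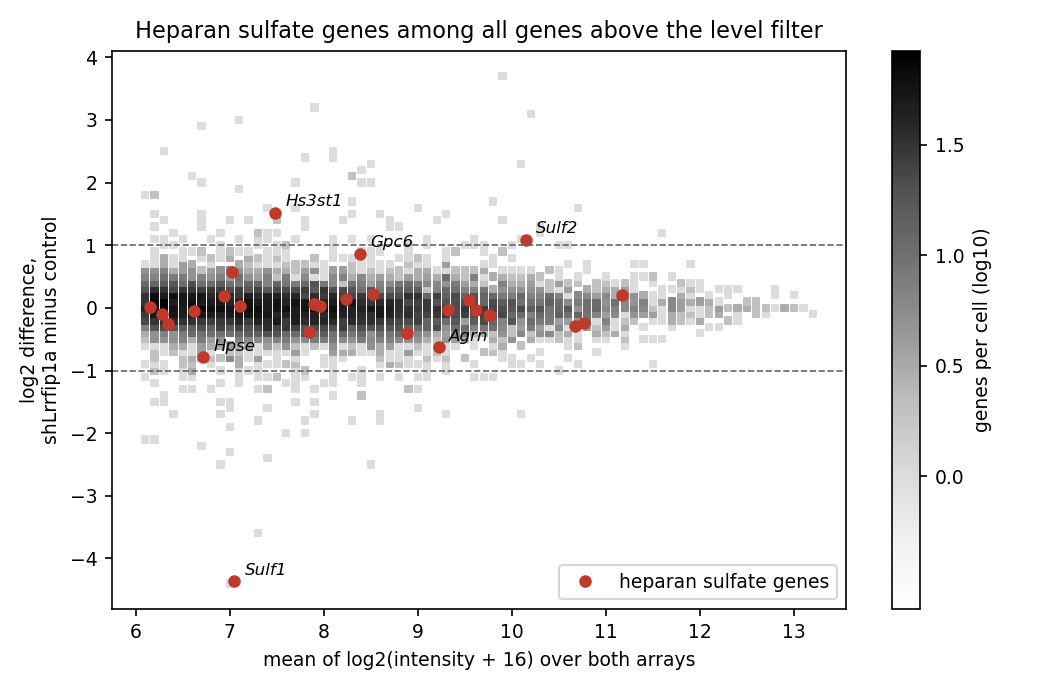
Log2 difference, shLrrfip1a minus control, against mean level for the 26 heparan sulfate genes above the level filter (red) over all 11448 such genes, drawn as grey cells whose darkness gives the number of genes. Dashed lines mark 2-fold, and the 6 genes past 1.5-fold are named. Sulf1 is the lowest point of the plot at -4.37.

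Where a gene has several probe sets, all of them were hybridised with RNA of the same culture, so their agreement bears on noise of single probe sets and not on differences between cultures. Of 14 members with at least 2 probe sets above the filter, 11 (78.6%) differed in 1 direction on all of them, and the exceptions were Glce, Hs2st1 and Hs3st3b1. Over all 4853 such genes the share was 60.3%. The members were chosen with these differences known, so nothing is read from their share beside it. The members' count was 9 of 14 with median centring and 14 of 23 without a filter. Sulf1, Sulf2 and Gpc6 were each uniform above the filter. Both Sulf1 probe sets passed it only through their control values, so their lower direction was fixed in advance. The third Sulf1 probe set, below the filter, differed by 0.03. The dimmest Gpc6 probe set passed only through its shLrrfip1a value. Hs3st1 and Hpse had 1 probe set and Agrn had 1 above the filter, so agreement could not be counted for those 3.

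The other genes of the pathway were taken from 4 lists. The 10 further heparan sulfate genes above the filter had a median of 0.06, and 1 of them (10%) passed 1.5-fold, beside 4.8% of all genes. This was Col18a1, for a collagen of basement membranes that carries heparan sulfate, at 462 in shLrrfip1a cells and 815 in control cells (-0.80), with -0.67 on its other probe set. Next were Spock2, for a matrix proteoglycan (161 in shLrrfip1a cells, 109 in control cells, 0.50), and Nrp1, for a co-receptor of semaphorins and vascular growth factors (284 in shLrrfip1a cells, 367 in control cells, -0.35). Of the 3 genes for basement membrane heparan sulfate proteoglycans, Agrn and Col18a1 were thus lower and Hspg2 was not.

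None of 16 genes that supply sugar precursors and activated sulfate passed 1.5-fold (median 0.04), beside 4.8% of all genes. Slc35d1, a nucleotide sugar transporter gene, had the largest difference, at 105 in shLrrfip1a cells and 74.01 in control cells (0.43). Ugdh, which makes the precursor of glucuronic acid, read 1241 in shLrrfip1a cells and 1602 in control cells (-0.36). Uap1, which makes the precursor of N-acetylglucosamine, read 459 in shLrrfip1a cells and 565 in control cells (-0.29). None of 10 genes of lysosomal breakdown passed it either (median 0.08). The beta-galactosidase gene Glb1 read 239 in shLrrfip1a cells and 346 in control cells (-0.51). The lysosomal sulfatase gene Arsg read 76.3 in shLrrfip1a cells and 49.97 in control cells (0.48), and the glucosaminidase gene Naglu read 225 in shLrrfip1a cells and 175 in control cells (0.34).

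Chondroitin and dermatan sulfate are built on the same linker by other enzymes. Of their 15 genes above the filter, 1 was at least 1.5-fold higher and 2 were lower, and the median was -0.03. This is 20% past 1.5-fold in either direction, beside 4.8% of all genes, and in a list this short nothing is read from it. Those past 1.5-fold all encode sulfotransferases, as do Chst3, Chst12, Chst13, Chst14 and Chst15 of the same list, which stayed under it. Chst7 read 163 in shLrrfip1a cells and 92.3 in control cells (0.72). Chst11 read 262 in shLrrfip1a cells and 418 in control cells (-0.64), but differed by 0.05 on its other probe set. Ust read 143 in shLrrfip1a cells and 225 in control cells (-0.60), with -0.25 on its other one. No gene of the 4 lists reached 2-fold, as 1.35% of all genes did, so in lists this short their absence is not read as a result.

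Of the 26 members above the filter, 8 turned direction under at least 1 of 4 scalings and 18 kept it. The RNA spiked in from bacteria and phage read lower in shLrrfip1a on 38 of its 42 probe sets, and scaling to it moved the median of all genes to 0.17. Under that scaling B4galt7, B3gat3, Ext1, Hs2st1 and Sdc4 turned to higher, so 18 of the 26 members were higher and 8 lower. Xylt2 turned to lower under the 3 other scalings, and Ndst2 and Sdc3 under median centring. Sulf1, Sulf2, Hs3st1, Gpc6, Hpse and Agrn kept their direction under all 4 scalings. Gpc6 came to 1.04 with spike-in scaling and so passed 2-fold there.

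**Figure D4:**
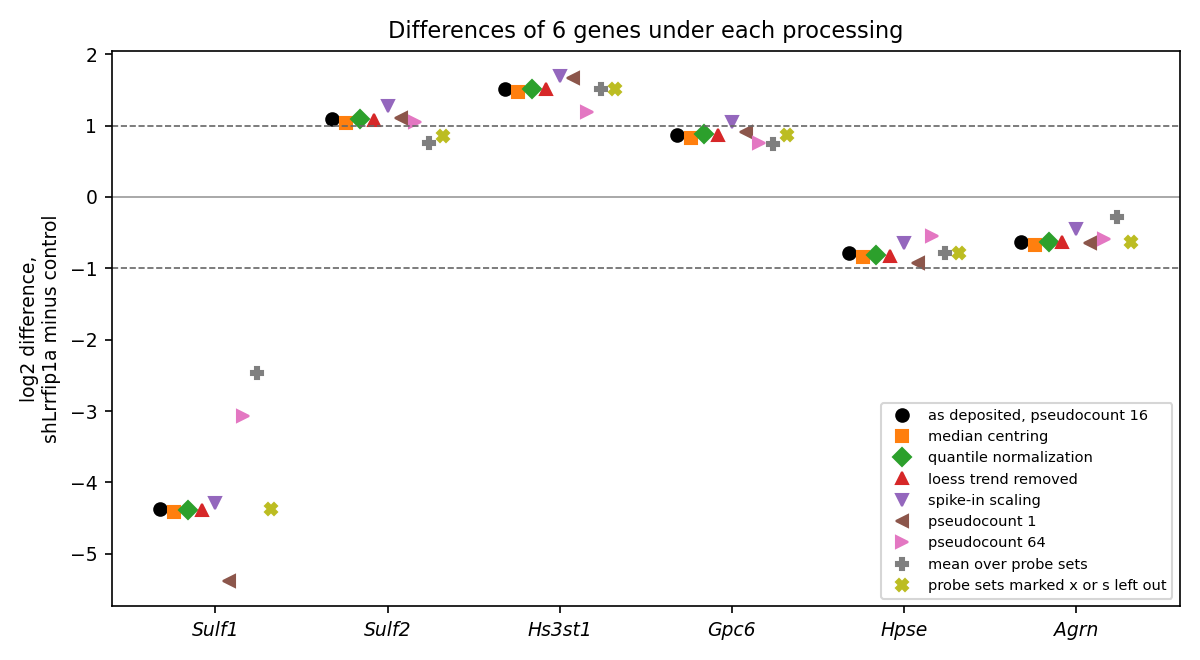
Log2 difference, shLrrfip1a minus control, of 6 heparan sulfate genes under each processing, 1 symbol per processing and black for the values as reported. Dashed lines mark 2-fold. All 6 genes stay on their side of 0, and Sulf1 spans -5.38 to -2.47.

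Promoter sequence was examined for what the members share beyond their function. RefSeq promoters of GRCm38.p6 were at hand for 26 members, among them Sulf2, Hs3st1 and Hpse, and not for Sulf1, Xylt1, Ext1, Extl3, Ndst1, Ndst4, Sdc2, Gpc1 and Gpc6. The 250 bases before the annotated start are given for Sulf2, which has 2 annotated starts, for Hs3st1, the other member at least 2-fold higher, and for Hpse, the lowest member with a promoter. All 4 lie on the minus strand and are written in the direction of the gene, at chr2:166155684-166155933 and chr2:166155286-166155535 for Sulf2, chr5:39644632-39644881 for Hs3st1 and chr5:100719717-100719966 for Hpse. Capitals mark the GC box GGGCGG, searched on both strands.
Sulf2, upstream start: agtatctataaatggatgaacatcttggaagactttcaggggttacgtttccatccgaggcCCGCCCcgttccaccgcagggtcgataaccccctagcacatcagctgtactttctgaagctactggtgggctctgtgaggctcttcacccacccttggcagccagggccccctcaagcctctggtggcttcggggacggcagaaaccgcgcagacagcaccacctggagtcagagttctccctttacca
Sulf2, downstream start: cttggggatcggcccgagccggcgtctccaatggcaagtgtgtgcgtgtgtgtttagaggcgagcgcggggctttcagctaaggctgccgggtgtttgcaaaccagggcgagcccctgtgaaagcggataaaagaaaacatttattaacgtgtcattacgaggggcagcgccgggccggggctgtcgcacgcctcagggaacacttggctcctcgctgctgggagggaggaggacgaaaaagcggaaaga
Hs3st1: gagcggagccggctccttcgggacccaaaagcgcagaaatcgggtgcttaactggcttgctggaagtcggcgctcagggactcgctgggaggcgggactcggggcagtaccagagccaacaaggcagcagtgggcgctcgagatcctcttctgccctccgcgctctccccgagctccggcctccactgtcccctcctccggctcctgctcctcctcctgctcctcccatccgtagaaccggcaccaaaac
Hpse: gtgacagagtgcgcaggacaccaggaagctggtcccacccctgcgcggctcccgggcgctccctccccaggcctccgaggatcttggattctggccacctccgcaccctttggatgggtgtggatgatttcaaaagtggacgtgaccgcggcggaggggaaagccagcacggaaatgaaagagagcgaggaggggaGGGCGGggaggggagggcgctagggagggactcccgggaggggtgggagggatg

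The upstream Sulf2 window and the Hpse window each hold 1 GC box, and the downstream Sulf2 window and the Hs3st1 window hold none. The E box CANNTG, bound by myogenic factors among others, matches itself on the other strand and occurs 2 times in each Sulf2 window and in neither of the others. Of the 26 members with a promoter, 18 (69.2%) had a GC box in at least 1 window and 12 (46.2%) an E box. They are not the same 26 as the members above the filter, since Extl1, Ndst3, Hs6st2, Gpc2, Gpc3 and Gpc4 lay below it. Of the 9246 genes above the level filter with a promoter, 63.6% had a GC box and 61.7% an E box, and of all 27025 genes in the promoter set 35.4% and 69.3%. The median GC content was 64.8% in the members' windows and 60.0% in those of genes above the filter, and motif shares at matched GC content were not compared. Sulf2 and Hs3st1, the 2 members at least 2-fold higher, share neither motif in these windows, and a match or its absence only describes the letters.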

How the data were processed

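Total RNA of 2 C2C12 cultures was hybridised to Affymetrix mouse arrays. The authors deposited 1 linear intensity per probe set and array, and how the intensities were summarised, background-corrected and scaled is not given in the sources used here. Of 45101 probe sets, 64 controls, 932 with several gene symbols and 9160 with none were left out of gene values, which left 34945. Probe sets were named through the platform annotation.

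Values were taken as log2(intensity + 16). The level filter, the 2-fold and 1.5-fold sizes and the choice of the brightest probe set per gene are described beside the results. No p-value was computed, because each group has 1 array, and the number of arrays limits the precision. Genes were named by rule: both sulfatases, Lrrfip1, members past 1.5-fold, the largest of each role group and the 3 largest of each pathway list, and other members for completeness. The members, lists, sizes and alternatives were chosen with earlier results of these data known. Alternatives were 4 scalings, constants of 1 and 64, no filter or the 75th percentile, the mean over probe sets, and sizes of 1.5-fold and 3-fold. Leaving out probe sets marked x or s was added after seeing the data. The procedure was also run on simulated arrays with planted differences and random noise per probe set. The simulated arrays held no differences between cultures, so this run cannot speak to that limit of the design. Python 3.11.15, numpy 2.4.6, pandas 2.3.3, statsmodels 0.14.6 and matplotlib 3.10.9 were used.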

Additional observations from a re-analysis of the deposited data

How the results depend on the processing

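With 1 array per group no array can be left out, and the spread between cultures is unknown. No paired analysis was possible because the groups hold a lone sample each. Sulf1, Sulf2, Hs3st1, Gpc6, Hpse and Agrn kept their direction under all alternatives computed for them, with Sulf1 between -5.38 and -2.47, Sulf2 between 0.75 and 1.27, Hs3st1 between 1.19 and 1.69, Gpc6 between 0.74 and 1.04, Hpse between -0.93 and -0.54, and Agrn between -0.68 and -0.28. Not all stayed past 1.5-fold: Agrn fell short of it under spike-in scaling, a constant of 64 and the mean over probe sets, and Hpse under a constant of 64. The 2 members at least 2-fold higher came to 1 (Hs3st1) with the mean over probe sets or without probe sets marked x or s, and to 0 at 3-fold. The 1 member at least 2-fold lower came to 0 with the 75th percentile filter, which left Sulf1 out, and to 3 at 1.5-fold. With Sulf1 left out by that filter, the sulfatase median of -1.64 turned to 1.09, the value of Sulf2 alone. Over the whole array the 76 higher genes became 48 under the stricter filter, 268 at 1.5-fold, 28 at 3-fold and 121 under spike-in scaling. The 79 lower genes became 46 under the stricter filter, 282 at 1.5-fold, 23 at 3-fold and 44 under a constant of 64. Of members with several probe sets, 14 of 23 were uniform in direction without a filter, 9 of 9 with the stricter one and 9 of 14 with median centring, against 11 of 14 as reported.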

Other observations

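Genes next to the members that differed most were looked up by their order in GRCm38.p6, a step chosen after the values were seen. The protein-coding genes on either side of Sulf1, A830018L16Rik and Slco5a1, were dim, at 24.4 and 27.2 in shLrrfip1a cells and 20.7 and 35.2 in control cells. Prdm14, the second gene on one side, read 81.0 in shLrrfip1a cells and 52.3 in control cells (log2 difference 0.51). Near Sulf2, Ncoa3 and Prex1 differed by 0.30 and 0.18. Beside Gpc6 lies its relative Gpc5, which was dim at 26.1 in shLrrfip1a cells and 29.2 in control cells. Near Hs3st1, Zfp518b, the second gene on one side, read 125 in shLrrfip1a cells and 66.8 in control cells (0.77). Clnk, which lies between them, was dim, at 17.0 in shLrrfip1a cells and 15.3 in control cells (0.08). Rab28, the gene next to Hs3st1 on the other side, differed by 0.04. Near Hpse, Plac8 read 52.03 in shLrrfip1a cells and 237 in control cells (-1.89). Coq2, which lies between them, read 409 in shLrrfip1a cells and 399 in control cells (0.04). Helq and Mrps18c, on the other side of Hpse, differed by 0.32 and -0.07.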
